A study of Mus musculus with 6 samples.

Results

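Prostaglandin E2 is made stepwise from membrane lipid, carried across membranes and broken down, and the 9 genes described here cover that route: Pla2g4a, Ptgs1, Ptgs2, Ptges, Ptges2, Ptges3, Abcc4, Slco2a1 and Hpgd. They were chosen by name from the known pathway, with earlier results of these data known, and all 9 were found among the 23122 genes of the count table. The tumors grew under the skin of female BALB/c mice of 6 to 8 weeks from CT26, a mouse colorectal cancer line, which is a transplant of 1 line and not a tumor that arose in the gut. Mice were split at random once tumors reached 100 to 200 mm3. One group of 3 tumor samples came from mice given vehicle, and the other 3 from mice given TP-18 at 50 mg/kg by mouth once daily, both for 3 weeks. The series title calls TP-18 a dual antagonist of EP2 and EP4, the prostaglandin E2 receptors that raise cyclic AMP. Each sample is called a tumor below, but whether each sample is a separate mouse is not stated. The p-values therefore measure only the spread between these samples.

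Cytosolic phospholipase A2, encoded by Pla2g4a, frees arachidonic acid from membranes. Cyclooxygenases turn it into prostaglandin H2: Ptgs1 encodes COX-1, present in many resting cells, and Ptgs2 encodes COX-2, which is induced by cytokines, growth factors and cyclic AMP. Prostaglandin E synthases finish the reaction, Abcc4 carries prostaglandins out of the cell, Slco2a1 takes them up, and Hpgd, 15-hydroxyprostaglandin dehydrogenase, starts their breakdown. In colorectal tumors this route is known for high COX-2 and low Hpgd, and prostaglandin E2 there is known to restrain T cells and natural killer cells.

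The promoters of both genes whose groups did not overlap, Ptgs2 and Pla2g4a, and that of Ptgs1 as the other cyclooxygenase, are shown from RefSeq on GRCm38.p6, 5′ to 3′, from 250 bases before to 50 after an annotated start. Groups also did not overlap in 35.8% of all tested genes. The reference is the C57BL/6J strain, not BALB/c. Ptgs2 lies at chr1:150099781-150100080 on the plus strand, Pla2g4a at chr1:149961241-149961540 on the minus strand and Ptgs1 at chr2:36230176-36230475 on the plus strand. Capitals mark the motifs searched.
Ptgs2: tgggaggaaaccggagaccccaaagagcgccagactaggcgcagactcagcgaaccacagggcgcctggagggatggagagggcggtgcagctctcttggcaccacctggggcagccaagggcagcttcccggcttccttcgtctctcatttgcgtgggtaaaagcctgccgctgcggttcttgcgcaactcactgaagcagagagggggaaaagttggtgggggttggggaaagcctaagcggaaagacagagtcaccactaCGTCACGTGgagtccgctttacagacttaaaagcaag
Pla2g4a: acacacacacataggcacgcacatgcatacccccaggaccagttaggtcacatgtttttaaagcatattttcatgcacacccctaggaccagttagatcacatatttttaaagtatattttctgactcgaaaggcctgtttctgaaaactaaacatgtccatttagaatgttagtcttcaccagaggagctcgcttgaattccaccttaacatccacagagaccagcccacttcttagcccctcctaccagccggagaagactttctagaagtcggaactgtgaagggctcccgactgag
Ptgs1: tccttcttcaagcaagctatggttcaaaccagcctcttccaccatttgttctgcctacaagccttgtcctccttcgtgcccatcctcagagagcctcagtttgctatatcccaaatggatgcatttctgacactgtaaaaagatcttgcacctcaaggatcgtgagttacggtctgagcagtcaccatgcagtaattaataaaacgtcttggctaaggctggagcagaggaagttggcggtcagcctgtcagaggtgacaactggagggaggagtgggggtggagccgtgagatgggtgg
Only letters were searched, on both strands: the full cyclic AMP response element was TGACGTCA. Its shorter core was CGTCA. The pattern resembling an NF-kB site was GGGANTTTC. The AP-1 pattern was TGA, any base, then TCA. The TATA box was searched as TATAAA. The E-box was searched as CACGTG. The Ptgs2 window held CGTCA from base 14 after the annotated start, overlapping CACGTG from base 17, and none of the other patterns as spelled above. Whether transcripts in these tumors begin at the annotated starts was not examined. Sequence outside the windows was not searched, so a count of 0 covers the windows only. Over all 32851 promoter windows, 20.8% held CGTCA and 7.15% held the E-box. The NF-kB pattern was in 1.11% of all windows, the AP-1 pattern in 7.81% and TATAAA in 13.6%. Of the 11 windows of the 9 genes (Pla2g4a and Abcc4 have a pair each), 2 held CGTCA, that of Ptgs2 and that of Ptges3, which had it from base 12. TATAAA was in 3 (Hpgd, Slco2a1 and the other window of Pla2g4a), the E-box in 3 (Ptgs2, Ptges2 and Abcc4), and the NF-kB and AP-1 patterns in 0. The window of Pla2g4a and that of Ptgs1 shown here held none of the motifs. The full element was in 0 of the 11 windows and in 1.79% of all. Pla2g4a and Ptgs2 are neighbours on chromosome 1: 138740 bases separate their annotated ends, with 2 genes between them and no protein-coding one.

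Libraries held 34813482 to 36489081 counts and detected 18429 to 19617 genes. Levels within 1 gene are given as CPM, read counts scaled to a common library size with TMM (a factor that evens out library composition). Of 14189 genes that passed the low-count filter, 12.4% were called by edgeR's quasi-likelihood test at a Benjamini-Hochberg adjusted p under 0.05, 7.09% higher and 5.26% lower in TP-18 tumors. That is 1006 higher and 747 lower genes, beside 1424 and 238 by limma on FPKM, which lacks the TMM scaling. In 35.8% of them the groups did not overlap, with 18% higher and 17.8% lower in all TP-18 tumors. Among the epithelial markers used to check the label, Epcam averaged 0.021 CPM in vehicle and 0.341 CPM in TP-18 tumors, and 2 of 7 passed the filter. These 2 went opposite ways: Krt18 held 10.6 and 5.84 CPM, and Cdh1 1.85 and 4.09 CPM. Neither was called by edgeR (adjusted p = 0.0649 and 0.0647).

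No gene of the route passed the test in either direction, although all 9 passed the filter. By edgeR 0 of 9 were called, beside 12.4% of all tested genes, with 3 at an unadjusted p under 0.05 (Pla2g4a, Ptgs2 and Hpgd). DESeq2 called 2 lower, Ptgs2 and Pla2g4a, beside 1464 higher and 1240 lower of all 14189 tested genes. With limma-voom 0 were called, beside 1027 higher and 731 lower of all. The log2 change was negative in 6 and positive in 3, with a median of -0.10 beside -0.01 over all tested genes. In 2 of 9 genes every TP-18 tumor lay below every vehicle tumor, and in 0 every one lay above. Over all tested genes these shares were 17.8% and 18%, so 2 of 9 lower is near the share of all genes.

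**Figure D1:**
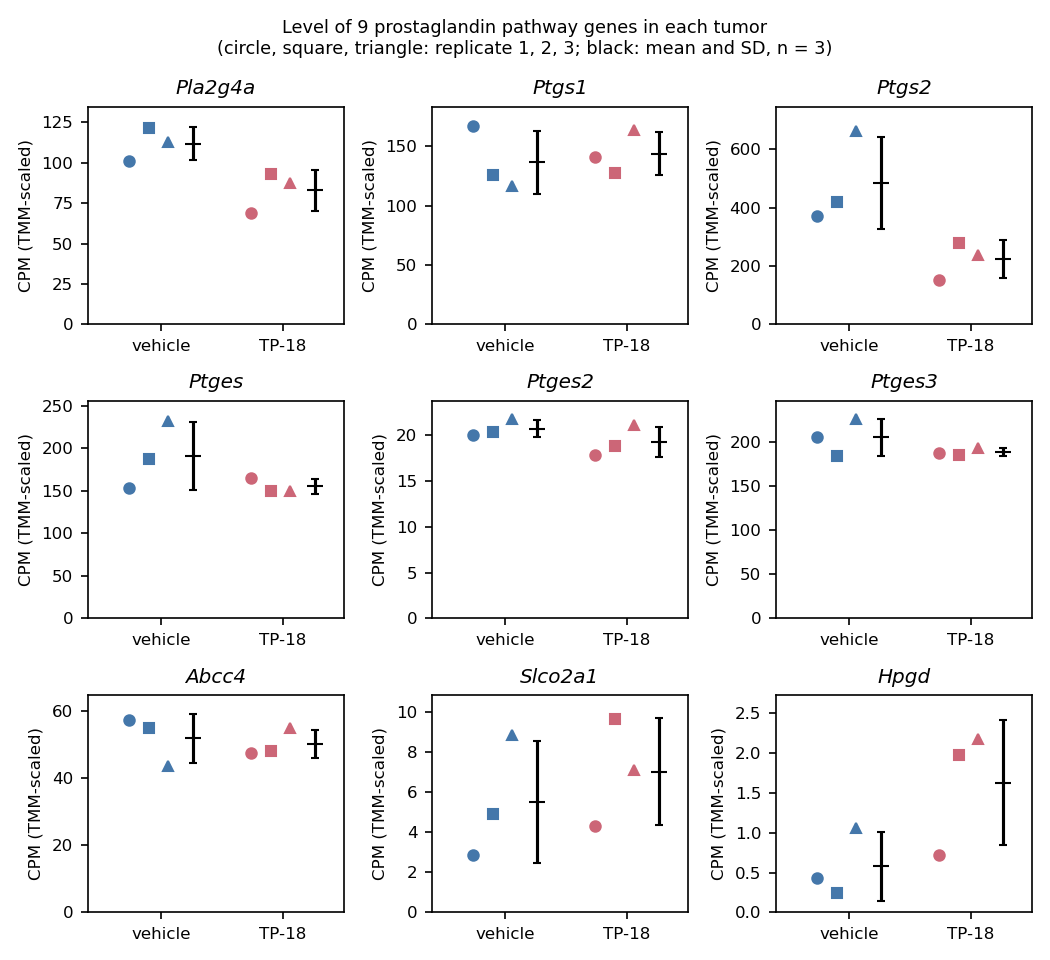
TMM-scaled CPM (vertical axes, from 0) of each gene in the 3 vehicle and the 3 TP-18 tumors, with the mean and SD in black. Only for Ptgs2 and Pla2g4a do all TP-18 points lie below all vehicle points.

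Ptgs2 showed the largest negative change of the route. It measured 371, 418 and 664 CPM in vehicle tumors 1, 2 and 3 and 152, 280 and 238 CPM in TP-18 tumors 1, 2 and 3. Vehicle 3 was highest and TP-18 1 lowest, and the groups did not overlap. Means were 485 ± 157 and 223 ± 65.5 CPM (SD, n = 3 each), which is 2.17-fold lower after TP-18, a log2 change of -1.12 ± 0.31 (SE, 95% interval -1.87 to -0.37). The adjusted p of 0.0669 by edgeR missed the threshold, while DESeq2 gave 0.000119 and limma-voom 0.0660. In bulk tumors fewer cells of a type and less RNA per cell cannot be told apart. Counts were deep, at least 5639 reads in a library, so counting error was small beside the spread between tumors. Ptgs2 spans 150100031 to 150108234 on chromosome 1.

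Vehicle 3, the tumor with the most Ptgs2, also had the highest fibroblast, neutrophil, red cell, platelet and epithelial marker sums. It had the lowest endothelial, mast cell, dendritic cell, skeletal muscle and adipocyte sums. Its T and NK cell sum was lowest too, at 15.7 CPM, but close to the 16.3 CPM of vehicle 2. Summed over 8 fibroblast markers it held 4702 CPM against 1178 to 2440 in the other 5 tumors, and over 7 neutrophil markers 328 against 33.2 to 91.7 CPM. Such sums are set by their most abundant genes. Among vehicle tumors Col3a1 (1077 ± 1162 CPM) and Col1a1 (573 ± 606) varied widely, while the fibroblast marker Pdgfra (51.3 ± 6.36) did not. Red cell markers summed to 395 CPM there, to 66.3 and 183 CPM in the other vehicle tumors and to 14.8 to 33.9 CPM in TP-18 tumors, with 4 of 5 tested called lower, so they too were lower in every TP-18 tumor, as Ptgs2 was. Platelet markers summed to 104 CPM in vehicle 3 against 17.6 to 34.0 CPM elsewhere. Most of that sum was Pf4 (43.6 ± 37.0 CPM in vehicle), while Itga2b (5.11 ± 0.197) varied little. Il1b, a cytokine that induces Ptgs2, was at 137 CPM there and at 25.9 to 47.3 CPM elsewhere, and Il6 at 10.1 against 0.520 to 1.41 CPM (both named after their values were seen). The part of these cells and cytokines in the Ptgs2 result was not tested. Without vehicle 3 the Ptgs2 change measured -0.81 ± 0.24 (adjusted p = 0.0925 by edgeR). Over 9 macrophage markers the sum was 1448 to 1994 CPM in vehicle and 2463 to 3178 CPM in TP-18 tumors, with 3 of 9 called higher. Lyz2 was its largest part, at 772 ± 110 and 1363 ± 328 CPM. The macrophage marker Mrc1 went the other way, at 252 ± 121 and 162 ± 36.7 CPM, and was not called.

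Pla2g4a, at 149829618 to 149961290 on chromosome 1, differed by less but with a smaller error. Vehicle tumors measured 101, 121 and 113 CPM and TP-18 tumors 68.7, 92.8 and 87.6 CPM. TP-18 1 was again the lowest, and the groups did not overlap. The means of 112 ± 10.2 and 83 ± 12.7 CPM differ 1.35-fold, a log2 change of -0.43 ± 0.12 (95% interval -0.72 to -0.14, adjusted p = 0.0603 by edgeR). It passed with DESeq2 (0.0176), with no filter on low counts (0.0232) and without vehicle 1 (0.0467), and missed in the other fits with 1 library left out.

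Ptgs1, the constitutive cyclooxygenase, held 167, 126 and 117 CPM in vehicle and 141, 127 and 163 CPM in TP-18 tumors, and the groups overlapped. Its log2 change was 0.08 ± 0.15 (95% interval -0.28 to 0.43, adjusted p = 0.775), which leaves room for a ratio of TP-18 to vehicle from 0.826 to 1.34. The sign turned without vehicle 3 and without TP-18 3. The -1.12 of Ptgs2 lay outside this interval.

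The 2 cyclooxygenases were compared within each tumor per length, as FPKM (counts divided by gene length and library total, without TMM). Ptgs2 was 2.45, 3.65 and 6.25 times Ptgs1 in vehicle and 1.18, 2.42 and 1.601 times Ptgs1 in TP-18 tumors. So Ptgs2 exceeded Ptgs1 in all 6 tumors, and the ratio was lower in each TP-18 tumor, by a narrow gap between 2.42 and 2.45. An exact two-sided permutation test gave p = 0.1, the smallest that 3 against 3 tumors allow, and 0.2 after adjustment over the 6 ratios computed. Ptgs2 over Ptges, the next enzyme of the route, was 1.98, 1.82 and 2.33 against 0.750, 1.52 and 1.29, also without overlap (exact p = 0.1, adjusted 0.2). These ratios share Ptgs2 and are not separate results. The ratios computed without Ptgs2 overlapped between groups. Ptges over Ptges2 was 4.10 to 5.73 in vehicle and 3.83 to 4.95 in TP-18 tumors (exact p = 0.4). Ptges over Ptges3 (exact p = 0.4) and Abcc4 over Slco2a1 (exact p = 0.5) overlapped too.

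**Figure D2:**
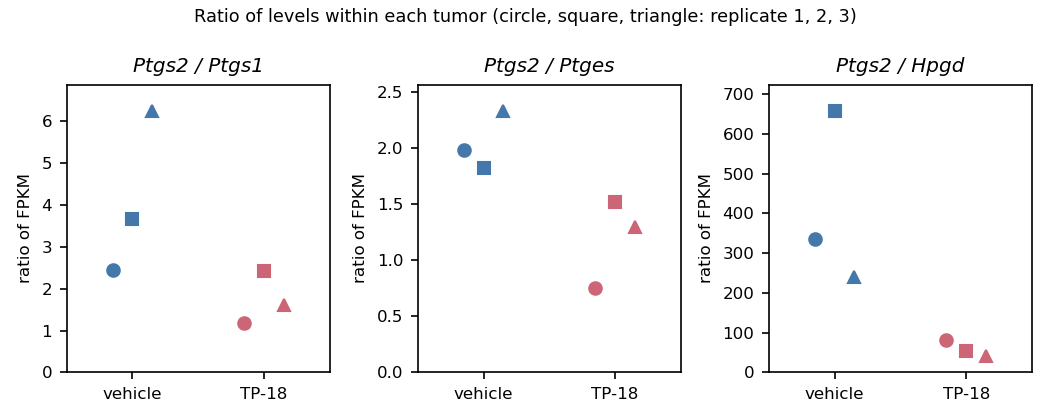
Ratio of FPKM values (vertical axes, from 0) within each of the 3 vehicle and 3 TP-18 tumors for Ptgs2 over Ptgs1, over Ptges and over Hpgd. All TP-18 points lie below all vehicle points in each panel, with 2.42 just under 2.45 for Ptgs1. Ptgs2 is the numerator in every panel, and the ratios computed without Ptgs2, which overlapped, are not drawn.

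The terminal synthases differed little. Ptges, the inducible microsomal synthase that works with COX-2, measured 153, 188 and 233 CPM in vehicle and 165, 150 and 150 CPM in TP-18 tumors. Vehicle 3 was again highest, and the groups overlapped because TP-18 1 lay above vehicle 1. The log2 change was -0.30 ± 0.14 (95% interval -0.63 to 0.03, adjusted p = 0.208 by edgeR), which became -0.42 (adjusted p = 0.0431) without vehicle 1 and -0.12 (0.510) without vehicle 3. Spread among TP-18 tumors was small, 5.50% of the mean against 20.8% in vehicle.

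Ptges2, a membrane-associated synthase, held 20.7 ± 0.941 CPM in vehicle and 19.2 ± 1.65 CPM in TP-18 tumors (SD, n = 3), a log2 change of -0.10 ± 0.10. Ptges3, the cytosolic synthase also known as the HSP90 cochaperone p23, held 205 ± 20.8 and 189 ± 4.50 CPM, a change of -0.12 ± 0.09. Adjusted p-values were 0.540 and 0.395, the ranges overlapped, and both signs turned positive on FPKM, which lacks the TMM scaling. The 95% interval of Ptges3 ended at -0.33 and that of Ptges2 at -0.34. A processed copy, Ptges3-ps, was counted at 38.1 to 48.8 CPM, so reads of Ptges3 may have been divided with it.

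**Figure D3:**
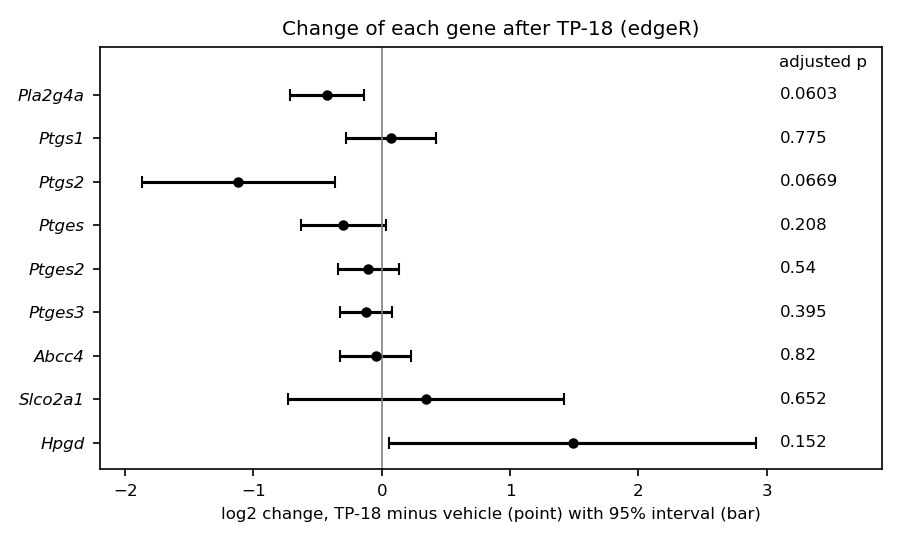
Log2 change of each gene, TP-18 minus vehicle (horizontal axis), as points with 95% intervals from edgeR, and the adjusted p at the right. The intervals of Ptgs2, Pla2g4a and Hpgd leave out 0, and no adjusted p is under 0.05.

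Of the 2 transporters, Abcc4 (the exporter MRP4) was the steadier. It measured 57.2, 54.9 and 43.6 CPM in vehicle and 47.4, 48.2 and 55.0 CPM in TP-18 tumors, a log2 change of -0.05 ± 0.12 (95% interval -0.32 to 0.23, adjusted p = 0.820), and its sign turned without vehicle 1 and on FPKM. Slco2a1, the uptake carrier, varied over 3-fold among vehicle tumors, at 2.85, 4.90 and 8.84 CPM, and measured 4.30, 9.63 and 7.10 CPM in TP-18 tumors. Its log2 change of 0.34 ± 0.45 had an interval from -0.73 to 1.42 (adjusted p = 0.652 by edgeR), so the direction was not resolved, and changes within that interval could be missed. With 1 library left out the Slco2a1 change ran from 0.04 (without vehicle 1) to 0.87 (without vehicle 3). Slco2a1 is known in blood vessel endothelium. The sum of 7 endothelial markers was 64.7 to 157 CPM in vehicle and 104 to 208 CPM in TP-18 tumors. By tumor it was 146, 157 and 64.7 CPM in vehicle and 104, 208 and 148 CPM in TP-18: within TP-18 tumors it had the same order as Slco2a1, as it had between vehicle 1 and 2, while vehicle 3 had the lowest sum and the most Slco2a1 of its group. Its part in the Slco2a1 values was not tested.

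Hpgd, which inactivates prostaglandin E2, was scarce, and its change had the opposite sign to that of Ptgs2. Reads numbered 15, 8 and 34 in vehicle and 27, 72 and 85 in TP-18 tumors, or 0.427, 0.245 and 1.06 CPM against 0.726, 1.97 and 2.18 CPM. TP-18 1 lay below vehicle 3, so the groups overlapped. The means of 0.578 ± 0.429 and 1.63 ± 0.786 CPM gave a ratio of 2.81 and a log2 change of 1.49 ± 0.62, with an unadjusted p of 0.0429 and an adjusted p of 0.152 by edgeR. The direction was the same in all 15 alternatives, and with 1 library left out the change ran from 1.14 (adjusted p = 0.329, without vehicle 2) to 2.27 (0.0584, without vehicle 3).

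Set against Hpgd within a tumor, the level of Ptgs2 per length was 335, 658 and 241 times higher in vehicle and 80.5, 54.8 and 42.1 times higher in TP-18 tumors. The groups did not overlap (exact two-sided p = 0.1, adjusted 0.2), and the denominators rest on the few reads given above. Leaving out any 1 tumor kept the mean difference of this ratio between -2.32 and -3.04 on the log2 scale.

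Ordered per length, levels differed widely between genes of the route. In vehicle tumors Ptgs2 (103 ± 29.6 FPKM) and Ptges3 (99.9 ± 9.92) came first and overlapped, followed by Ptges (49.6 ± 8.35). Pla2g4a (34.8 ± 2.23) and Ptgs1 (26.7 ± 6.45) overlapped next, and then came Ptges2 (10.1 ± 0.279), Abcc4 (5.45 ± 0.960), Slco2a1 (1.16 ± 0.603) and Hpgd (0.316 ± 0.225), none overlapping its neighbour. In TP-18 tumors Ptges3 (101 ± 4.11 FPKM) stood alone at the top. Ptgs2 (52.5 ± 15.2) now overlapped Ptges (44.8 ± 2.50), and Ptgs1 (30.9 ± 4.44) overlapped Pla2g4a (28.6 ± 4.31). Slco2a1 (1.65 ± 0.614) now overlapped Hpgd (0.994 ± 0.485) at the lower end. Over all 6 tumors, Ptgs2 exceeded 95.5% of the protein-coding genes of the table, Pla2g4a 88.3%, Slco2a1 41.5% and Hpgd 36%.

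**Figure D4:**
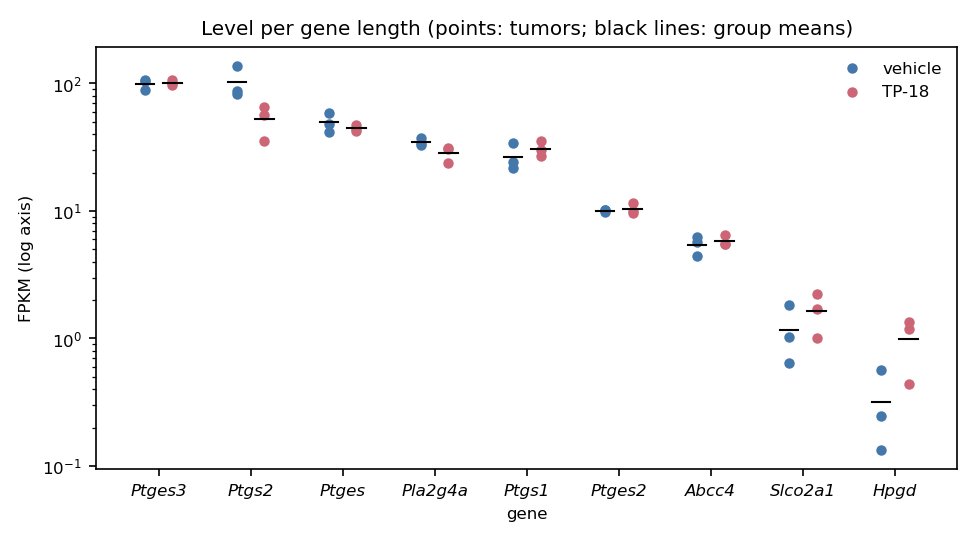
FPKM on a log axis for each gene, ordered by mean level, with 1 point per tumor and black lines at group means. Levels span from Ptges3 near 101 FPKM to Hpgd under 1.36 FPKM in every tumor.

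Genes around the route were taken from 6 lists, of which 67 of 81 genes were tested. Of these, 6 were higher and 6 lower by edgeR, beside 7.09% and 5.26% of all genes, and the median log2 change was -0.02. Among 14 tested phospholipase and arachidonate release genes, 3 were higher and 2 lower (median 0.13). Plaat3, a phospholipase A of the PLAAT family, was at 4.84, 3.40 and 3.75 CPM in vehicle and rose to 14.5, 19.2 and 14.6 CPM, a log2 difference of 2.01 ± 0.19 by edgeR (adjusted p = 0.00182). Pla2g4c, a paralog of Pla2g4a that does not need calcium, rose from 6, 5 and 8 to 36, 49 and 60 reads (2.73 ± 0.41, adjusted p = 0.00788). Both calls held with any 1 library left out, and that on Pla2g4c missed in limma on FPKM with no filter (0.0557).

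Daglb, a diacylglycerol lipase, rose from 7.57 ± 1.13 to 14.5 ± 1.80 CPM (adjusted p = 0.0127), with 0.0589 without vehicle 2 and 0.0601 without TP-18 3. The secreted Pla2g12a fell from 58.5 ± 2.60 to 41.4 ± 3.82 CPM (0.0159), and missed without vehicle 2 (0.0656), TP-18 1 (0.0562) or TP-18 2 (0.0545) and on FPKM (0.0707 to 0.138). Pla2g2e, named after its values were seen, fell from 2.18 ± 0.260 to 0.745 ± 0.399 CPM (0.0466) and passed with TP-18 3 left out (0.0373) but not without vehicle 1 (0.0827), vehicle 2 (0.120), vehicle 3 (0.0739), TP-18 1 (0.134) or TP-18 2 (0.133). Pla2g2d, a secreted phospholipase of dendritic cells and macrophages, had 3, 14 and 3 reads against 27, 48 and 40 (adjusted p = 0.0508), and Faah, which degrades anandamide, had an adjusted p of 0.0819.

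**Figure D5:**
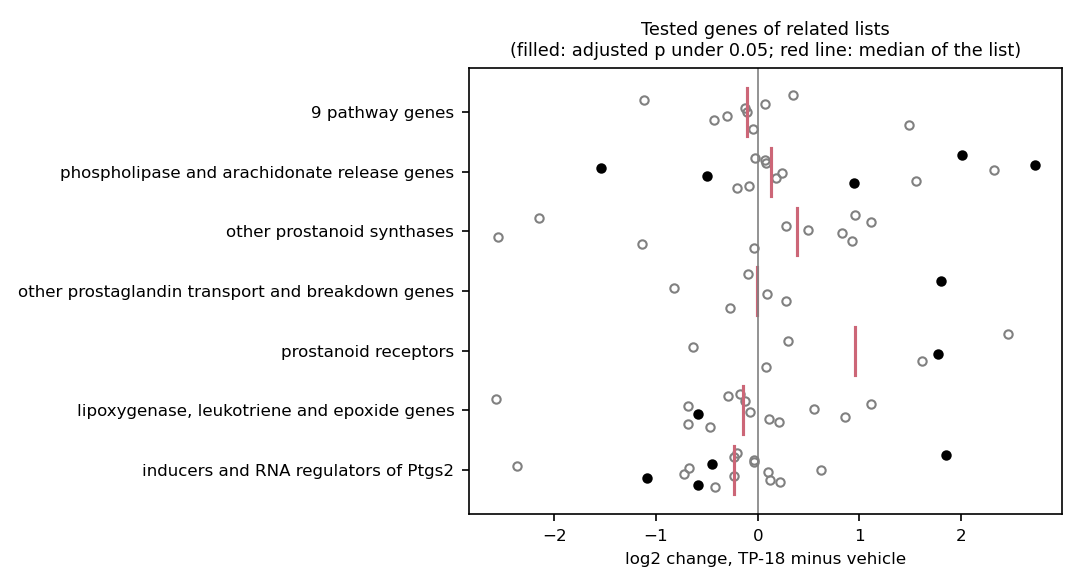
Log2 change, TP-18 minus vehicle (horizontal axis), of each tested gene of the route and of 6 related lists, filled where the adjusted p is under 0.05, with list medians in red. The 9 genes of the route have no filled point, and the related lists have 6 higher and 6 lower.

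Other prostanoid synthases gave no call in 10 tested genes by edgeR, beside 12.4% of all tested genes. Tbxas1, thromboxane A synthase, came closest, at 8.28, 5.60 and 11.2 CPM in vehicle and 14.3, 19.98 and 14.6 CPM in TP-18 tumors (log2 change 0.96 ± 0.26, adjusted p = 0.0518). Cbr1, a carbonyl reductase that can reduce prostaglandin E2, measured 1.29 ± 0.122 and 2.45 ± 0.340 CPM (0.0612). Ptgis, prostacyclin synthase, and Cbr2, another carbonyl reductase, were named after their values were seen because vehicle 3 stood out: Ptgis measured 4.38, 4.26 and 19.0 CPM against 1.24, 3.15 and 1.82 CPM, and Cbr2 9.88, 11.6 and 54.5 CPM against 4.68, 2.93 and 5.33 CPM. Without vehicle 3 their log2 changes were -1.05 (adjusted p = 0.128) and -1.30 (0.0273) beside -2.15 (0.107) and -2.55 (0.101) with it.

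Among 6 tested genes of other transport and breakdown, 1 was called, beside 12.4% of all tested genes. Slco3a1, a carrier reported to accept prostaglandins, was at 2.25 ± 1.29 CPM in vehicle and rose to 7.81 ± 1.86 CPM by edgeR (log2 difference 1.80 ± 0.43, adjusted p = 0.0369), and the call was lost without any 1 library but vehicle 3 (0.0670 to 0.1002). Abcc1, the exporter MRP1, measured 135 ± 19.4 and 112 ± 10.6 CPM (0.180), and Slco2b1, an organic anion carrier, 3.95 ± 1.23 and 2.23 ± 1.19 CPM (0.222).

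Of the prostanoid receptors, 1 of 6 tested passed by edgeR, beside 12.4% of all tested genes. Ptger4, which encodes EP4, a named target of TP-18, was at 2.65, 1.78 and 2.28 CPM in vehicle and rose to 7.205, 5.88 and 9.85 CPM, 1.77 ± 0.27 on the log2 scale (adjusted p = 0.00770). Every TP-18 tumor lay above every vehicle tumor, and the call held with any 1 library left out. Ptger2, which encodes EP2, measured 0.911, 0.214 and 0.812 against 1.24, 3.15 and 1.59 CPM (adjusted p = 0.105), and Tbxa2r, the thromboxane receptor, 0.176 ± 0.147 and 0.993 ± 0.574 CPM (0.0633). Summed T and NK cell markers, cells known to carry EP4, were 15.7 to 27.0 CPM in vehicle and 80.9 to 87.3 CPM in TP-18 tumors with 7 of 7 called higher, and their part in the Ptger4 change was not tested.

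The lipoxygenase, leukotriene and epoxide list had 1 of 14 tested genes lower and 0 higher (median -0.15), beside 5.26% and 7.09% of all tested genes. Dpep2, a dipeptidase that converts leukotriene D4, fell from 87.9 ± 5.64 to 58.5 ± 5.33 CPM (log2 change -0.59 ± 0.09, adjusted p = 0.00958). Ltc4s, leukotriene C4 synthase, measured 0.911, 1.32 and 4.53 against 0.215, 0.630 and 0.282 CPM (0.0564), and Alox5, 5-lipoxygenase, 6.32 ± 1.52 and 3.94 ± 0.836 CPM (0.113).

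Of 17 inducers and RNA regulators of Ptgs2, 3 were called lower and 1 higher by edgeR, beside 5.26% and 7.09% of all tested genes. Egr1, a transcription factor of the immediate early response, fell from 689, 399 and 507 to 258, 214 and 277 CPM (log2 change -1.09 ± 0.20, adjusted p = 0.0203). Its highest tumor was vehicle 1. Cebpd, a C/EBP factor known to act on Ptgs2, fell by 0.58 ± 0.11 (0.0173) and Jun, part of AP-1, by 0.45 ± 0.10 (0.0292), both on the log2 scale. Tnf, a cytokine that induces Ptgs2, rose from 1.85 ± 0.056 to 6.65 ± 1.70 CPM (0.00564), and the call held with any 1 library left out. Calls on Egr1 were lost without TP-18 1, 2 or 3 (0.0610 to 0.0666), on Cebpd without vehicle 2 or any TP-18 library (0.0569 to 0.0678), and on Jun without any 1 library but vehicle 1 (0.0644 to 0.107). Elavl1, which encodes the RNA-stabilising protein HuR, and Rela, the p65 subunit of NF-kB, had adjusted p-values of 0.0765 and 0.0840. The part of the genes of this list in the Ptgs2 result was not tested.

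The genes with the pattern most like Ptgs2 over the 6 tumors were sought among 11929 protein-coding genes by the root mean square difference of centred log2 CPM. They were Cavin4, a caveolar protein known in muscle (0.127), Dynap (0.154) and Adm, which encodes the vasodilator peptide adrenomedullin (0.209). Adm measured 5.92, 10.4 and 11.6 CPM in vehicle and 3.12, 5.06 and 4.13 CPM in TP-18 tumors, with TP-18 1 lowest as for Ptgs2. Since these genes were chosen for likeness to Ptgs2, their lower levels in TP-18 tumors restate that choice and are given with no test.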

How the data were processed

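Bulk RNA was sequenced from 6 tumor samples, and groups and replicate numbers were taken from the labels. The authors deposited a table of read counts per gene, whole numbers with no normalization, and a table of FPKM values, which equal each count divided by 1 gene length and the library total (checked in 12216 genes with at least 20 reads in every library). Per the submitters' processing notes, fastp, HISAT2, HTSeq and GRCm38 were used; their versions, the strand setting and how multiply mapped reads were treated were not given in the sources used here, so reads of overlapping or antisense genes cannot be told apart.

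The whole count table was fitted in R 4.3.3 with edgeR 4.0.16 (filterByExpr by group with minimum count 10 and total 15, TMM, robust quasi-likelihood F test, two-sided, Benjamini-Hochberg over 14189 genes, called under 0.05). Standard errors came from the F statistic. FPKM was used for levels between genes and, with pseudocounts of 1 and 0.1, for limma 3.58.1 alternatives. DESeq2 1.42.0, limma-voom, RLE and upper-quartile scaling, no filter, a replicate block and leaving out each library were also run. In simulated counts with a spread estimated from these data, the edgeR test recovered 58 of 100 planted 2-fold changes and 92 of 100 planted 4-fold changes. Of 14033 genes tested there, 9 without a planted change were also called. A change near 2-fold can thus be missed.

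The genes and lists were chosen with earlier results of these data known. Text names the 9 genes of the route, up to 4 called and 2 other genes of each list by smallest p, and the 3 genes most like Ptgs2. Of 81 listed related symbols 78 matched the table, and all 88 cell type markers did. Coordinates and promoters are from RefSeq on GRCm38.p6. Errors do not cover PCR copies.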

Additional observations from a re-analysis of the deposited data

How the results depend on the processing

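Over the 15 alternatives, Ptgs2, Pla2g4a and Ptges stayed negative and Hpgd and Slco2a1 positive. The 9 genes of the route gave 0 higher calls in every fit and 0 lower calls by edgeR with all 6 libraries, against 1 with no filter, 2 by DESeq2 and 2 with the replicate block; with 1 library left out lower calls ran from 0 to 2. The sign turned in limma on FPKM with a pseudocount of 1, with or without the filter, for Ptges2 (0.034), Ptges3 (0.025) and Abcc4 (0.085), and with 0.1 (0.036, 0.026 and 0.0997), a scale that moved the median of all tested genes to 0.13 from -0.01. With 1 library left out Slco2a1 ran from 0.04 to 0.87, Hpgd from 1.14 to 2.27, Ptges from -0.42 to -0.12, Ptgs1 from -0.027 to 0.26, Abcc4 from -0.15 to 0.046 and Il1b from -1.04 to 0.60.

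Over all genes, calls numbered 1006 higher and 747 lower. DESeq2 gave 1464 higher and 1240 lower. Limma on FPKM gave 1424 higher and 238 lower (pseudocount 1), 1468 and 256 (0.1) and, with no filter, 662 and 78. With 1 library left out calls ran from 388 to 1216 higher and 111 to 1023 lower. Of the related genes, DESeq2 called 12 higher and 10 lower, limma on FPKM with 0.1 called 10 higher and with no filter 0 lower, and fits with 1 library left out gave 1 to 9 lower. The cause of these shifts was not tested.

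The labels state no pairing by replicate number. Deviations of tumors of equal number correlated at 0.24, -0.08 and -0.04 across genes, and TP-18 2 and TP-18 3 deviated more alike with a vehicle tumor of another number. With the replicate block, calls were 547 higher and 231 lower, with adjusted p-values of 0.0401 for Ptgs2 and 0.0412 for Pla2g4a, which it gained, and 0.0808 for Slco3a1, 0.0824 for Pla2g2e and 0.0663 for Jun, which it lost. Depth limits Hpgd, Pla2g4c and Tbxa2r, which rest on few reads.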
